A study of Mus musculus with 11 samples.

Results

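Interleukin receptors are the cell surface chains through which B lineage cells read growth and differentiation signals from T cells, stroma and myeloid cells. The 10 genes described here encode receptor chains for interleukins known to act on B lineage or neighbouring immune cells: Il4ra, Il13ra1, Il2rg, Il21r, Il9r, Il5ra, Il6ra, Il6st, Il10ra and Il17rb. They were taken by name from the array files, where 13 of 39429 non-control probes carried one of these names. Of these 13 probes, 11 were well above background on at least 3 arrays, and 9 of the 10 genes could be tested.

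The arrays measured RNA of 11 lymphomas from lymph nodes of mice on a Black 6 background. All carried the c-myc-3'RR/p53+/- genotype, in which the 3'RR enhancers of the antibody heavy chain locus drive a c-myc transgene in B lineage cells and 1 allele of the tumour suppressor p53 is missing, so there was no tumour-free or wild-type group. The groups were 4 plasma cell lymphomas (PCL1 to PCL4), 3 mantle cell lymphomas (MCL1 to MCL3) and 4 Burkitt lymphomas (BL1 to BL4), all given as mature B cell stage. Each type was hybridised to a slide of its own, so type and slide cannot be told apart in any comparison below. The labels do not tie each tumour to a separate mouse, and p-values therefore measure the spread between these samples.

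Most of these receptors belong to the haematopoietin family, whose chains pair on ligand binding and activate Janus kinases (JAK) bound to their tails, which in turn phosphorylate STAT transcription factors. Il2rg, the common gamma chain, is shared by the receptors for IL-4, IL-9 and IL-21, and Il6st (gp130) is the signalling chain of the interleukin 6 receptor. Il17rb belongs to another family and signals through Act1 and NF-kappaB instead. IL-4 and IL-21 drive activation, class switching and plasma cell formation in germinal centres, and interleukin 6 is a survival factor for plasma cells and plasmacytomas.

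Il17rb, the receptor chain for interleukin 25, was the 1 member of the 9 tested that differed between types after adjustment over all genes. Its signal was lower in plasma cell lymphomas than in mantle cell lymphomas, by a log2 difference of -3.67 (standard error 0.77, n = 4 and 3 tumours, limma adjusted p = 0.0253). Il17rb was well above background in 1 of 4 plasma cell lymphomas and entered the fit mainly through the other types. Its call is therefore a description, and the difference has no exact size. Il21r and Il4ra were both lowest in tumour PCL4, and Il9r was high in PCL2, PCL3 and PCL4, but none of these 3 genes passed the test. Il6ra, Il6st, Il2rg and Il10ra were detected in all 11 tumours with no called difference. All values are log2 intensities minus the log2 of the 75th percentile of that array, so that 0 is the brightness below which 75% of its spots lie.

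The sequences behind the gene that passed the test, and the promoters of the pair of genes that were low in the same tumour, are shown first. Il17rb was read by a pair of probes, of which the first was tested and the second was well above background in PCL1 and PCL2 alone. Both lie on chromosome 14 (mm9, minus strand), A_55_P2124498 at chr14:30809354-30809413, towards the 3' end of the gene, and A_52_P604864 at chr14:30819260-30819319, further upstream. The probes are given 5' to 3', the 3' one by its first 30 of 60 bases and the upstream one whole.
Il17rb A_55_P2124498, first 30 bases: taatgaataatccgtttgggaggctctcac
Il17rb A_52_P604864: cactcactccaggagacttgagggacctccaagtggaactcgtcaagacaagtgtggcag

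Promoter windows of 250 bases before and 50 after the gene start came from RefSeq (GRCm38.p6) and matched 9 of the 10 genes, all but Il10ra. Capitals mark matches to 3 motifs searched on both strands. TTCNNNGAA and TTCNNNNGAA are the palindromic cores bound by STAT factors, and ATGCAAAT is the octamer bound by Oct-1 and Oct-2 in B cells, which was added to the search after the Il4ra sequence had been read. TTCNNNGAA was in none of the 9 windows, against 8.30% of all 32851 windows in the table. TTCNNNNGAA was in 1, that of Il5ra, against 6.95% of all windows. The octamer was in 1, that of Il4ra, against 1.74% of all windows, and its first base lay 139 bases before the start. The 3 motifs did not overlap in these windows.
Il17rb promoter, GRCm38.p6 chr14:30008847-30009146, minus strand: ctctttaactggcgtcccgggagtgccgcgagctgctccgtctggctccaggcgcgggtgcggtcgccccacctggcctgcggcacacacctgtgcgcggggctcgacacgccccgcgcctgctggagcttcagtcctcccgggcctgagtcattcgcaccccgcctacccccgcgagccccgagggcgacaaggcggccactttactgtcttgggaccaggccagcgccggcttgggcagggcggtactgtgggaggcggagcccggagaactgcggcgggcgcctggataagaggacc
Il4ra promoter, GRCm38.p6 chr7:125552021-125552320, plus strand: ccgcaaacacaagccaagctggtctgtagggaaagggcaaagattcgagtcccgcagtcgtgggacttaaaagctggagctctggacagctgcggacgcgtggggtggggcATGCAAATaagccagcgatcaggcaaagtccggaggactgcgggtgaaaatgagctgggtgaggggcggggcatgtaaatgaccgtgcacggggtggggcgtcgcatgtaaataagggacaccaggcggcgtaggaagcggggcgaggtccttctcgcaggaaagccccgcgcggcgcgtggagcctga
Il21r promoter, GRCm38.p6 chr7:125603179-125603478, plus strand: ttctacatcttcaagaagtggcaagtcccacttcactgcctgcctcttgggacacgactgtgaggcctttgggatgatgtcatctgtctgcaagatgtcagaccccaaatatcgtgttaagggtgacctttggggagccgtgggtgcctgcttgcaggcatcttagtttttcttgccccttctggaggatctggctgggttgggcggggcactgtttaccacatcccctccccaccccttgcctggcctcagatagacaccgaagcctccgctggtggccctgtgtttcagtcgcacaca
Il5ra promoter, GRCm38.p6 chr6:106748988-106749287, minus strand: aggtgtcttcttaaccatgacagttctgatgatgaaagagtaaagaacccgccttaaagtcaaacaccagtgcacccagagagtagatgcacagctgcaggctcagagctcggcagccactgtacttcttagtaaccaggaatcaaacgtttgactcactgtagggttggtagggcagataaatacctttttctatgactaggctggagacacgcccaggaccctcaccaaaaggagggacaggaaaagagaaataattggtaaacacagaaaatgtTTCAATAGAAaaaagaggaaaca

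The windows differ in base composition as well. The Il17rb window was 72% G and C with 32 CpG pairs, and the Il4ra window was 62.0% with 25 pairs, both above the upper quartile of all windows (61.7% and 20 pairs). The Il21r window was 56.0% with 7 pairs, which is the median count of pairs, and the Il5ra window was 44.3% with 4. Il4ra and Il21r, whose signals were low in the same tumour, thus had starts of different composition.

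The 11 arrays held 43020 non-control spots each, with a 75th percentile of 1072 to 1637 intensity units and 55.5% to 62.8% of spots well above background. The dimmest signal well above background lay between -6.56 and -5.10 on the scale used here, depending on the array. B lineage identity was checked with fixed marker lists, and all 10 B cell markers and 8 of 9 plasma cell markers were well above background on every array. With all tumours, no gene of either list differed between the types after adjustment. The list medians of plasma cell markers, each gene centred on its own mean, were -0.16, 0.23, 0.82 and 0.64 in PCL1 to PCL4, against 0.37, -0.82 and 0.03 in MCL1 to MCL3 and -0.94, -0.23, -0.08 and -0.10 in BL1 to BL4. PCL1 was therefore below MCL1, MCL3, BL3 and BL4 in the markers of its own label, and PCL2 was below MCL1. Without PCL1, 2 of 9 plasma cell markers were called against mantle cell and 1 against Burkitt lymphomas. Of the 10 B cell markers, 1 was called against each. Of all genes, 12.2% and 5.32% were then called. PCL1 was set apart partly by its low values of the plasma cell markers, so their counts without it are no separate support. PCL1 also stood apart from the other plasma cell lymphomas in markers of macrophages, as given beside Il9r below. Counts of called marker and pathway genes that changed without PCL1 are given with and without it.

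Over the whole array, 1701 of 20181 genes differed among the types (8.43%, moderated F test, adjusted p under 0.05), and 1 of the 9 tested receptors did. Between plasma cell and mantle cell lymphomas 1401 genes were called (6.94%), 972 of them lower in plasma cell lymphomas (4.82%), and the 1 receptor called, Il17rb, was lower. Between plasma cell and Burkitt lymphomas 133 genes were called (0.659%) and no receptor, although 4 of 9 receptors had an unadjusted limma p under 0.05, against 17.6% of all genes. These 4 were Il17rb, Il21r, Il2rg and Il9r, of which Il17rb entered the fit mainly through the other types. Between mantle cell and Burkitt lymphomas 1341 genes were called (6.64%) and no receptor, with 0 of 9 at an unadjusted limma p under 0.05, against 18.5% of all genes. With so few tumours per type the median standard error over all genes was 0.31, 0.29 and 0.31 in the 3 comparisons, and those of Il4ra, Il21r, Il5ra, Il17rb and Il9r were between 0.72 and 1.34.

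The receptors had no common direction in plasma cell lymphomas. Of the 9 tested, 3 were higher and 6 lower against mantle cell lymphomas, with a median log2 difference of -0.52, where the median of all genes was -0.03. Against Burkitt lymphomas 4 were higher and 5 lower, with a median of -0.10 beside 0.09 for all genes. Mantle cell against Burkitt lymphomas gave 8 higher and 1 lower, Il10ra, with a median of 0.45 beside 0.06 for all genes, of which 54.2% were higher. Centring the arrays on their median moved that last comparison by -0.26 for all genes, and under it Il21r, Il2rg and Il6ra changed sign.

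**Figure D1:**
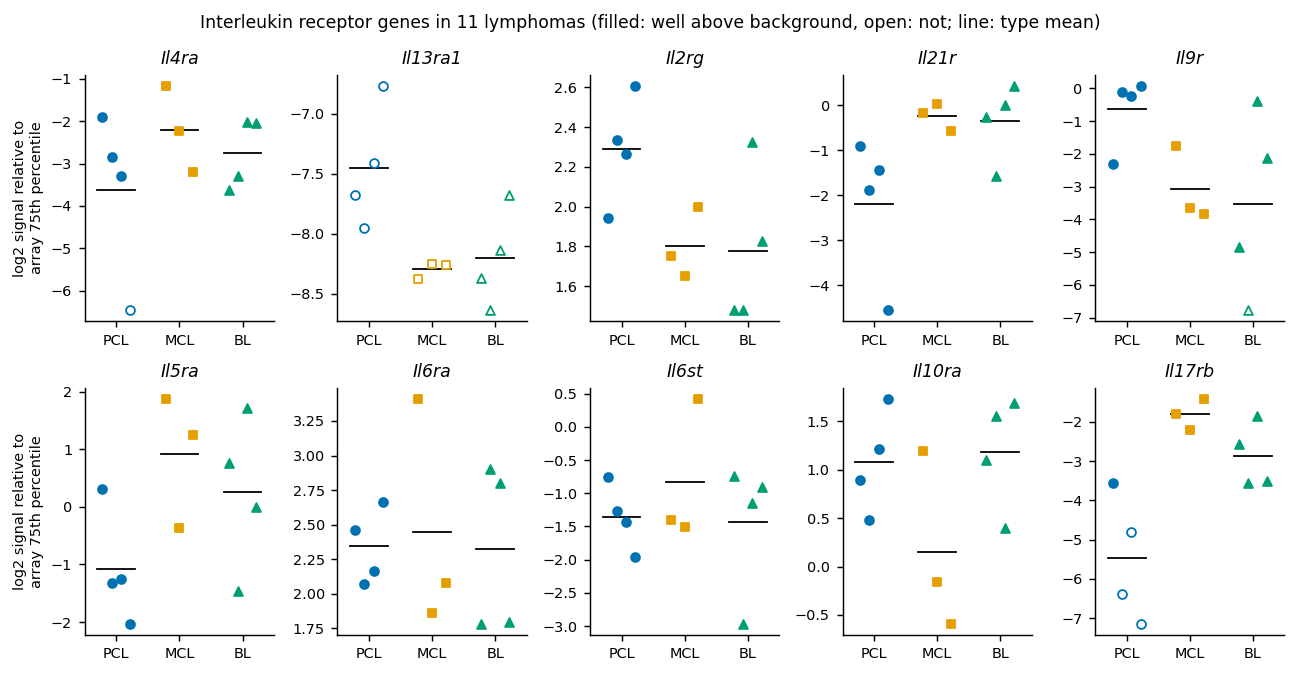
Log2 signal relative to the array's 75th percentile (vertical axes, each on its own scale) of the 10 receptor genes in 4 PCL, 3 MCL and 4 BL tumours, 1 point per tumour, with the type mean as a line; filled points are well above background and open points are not. The Il17rb points of PCL lie below all those of MCL, and Il13ra1 is open in all 11 tumours.

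Interleukin 4 and interleukin 13 share Il4ra, which pairs with Il2rg in blood cells and with Il13ra1 mainly outside the lymphoid lineage. Il4ra (A_55_P2017789, mm9 chr7:132722922-132722981) read -1.90, -2.85, -3.30 and -6.46 in PCL1 to PCL4, against -1.16, -2.24 and -3.19 in MCL1 to MCL3 and -3.63, -3.30, -2.01 and -2.03 in BL1 to BL4. The 3 types overlapped, and PCL4 lay apart from all other tumours at a signal that was not well above background, so its value is only a bound. The difference of plasma cell from mantle cell lymphomas was -1.43 (standard error 0.97, limma adjusted p = 0.398) and that from Burkitt lymphomas -0.89 (standard error 0.90, limma adjusted p = 0.655). Without PCL4 these became -0.49 and 0.056, so the sign against Burkitt lymphomas rested on that tumour.

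A second Il4ra probe (A_55_P1966189, mm9 chr7:132712550-132712609), which lies upstream, was well above background in 1 of 4 plasma cell lymphomas, in 3 of 3 mantle cell lymphomas and in 4 of 4 Burkitt lymphomas. It read -4.43, -5.86, -6.01 and -6.15 in PCL1 to PCL4, against -4.28, -3.90 and -4.92 in MCL1 to MCL3 and -5.02, -5.11, -4.91 and -5.51 in BL1 to BL4. Here PCL1 stood among the mantle cell lymphomas, and PCL2, PCL3 and PCL4 were below every other tumour at background. The difference from mantle cell lymphomas was -1.25 (standard error 0.41, limma adjusted p = 0.103 with every probe tested on its own). On this probe PCL4 lay close to PCL2 and PCL3, and none of these 3 was well above background.

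Il2rg, the common gamma chain, was among the steadiest of the receptors. It read 1.94, 2.34, 2.26 and 2.61 in PCL1 to PCL4, against 1.75, 1.65 and 2.00 in MCL1 to MCL3 and 1.48, 1.48, 2.33 and 1.83 in BL1 to BL4. The differences of plasma cell lymphomas were 0.49 from mantle cell lymphomas (95% interval -0.06 to 1.04, limma adjusted p = 0.257) and 0.51 from Burkitt lymphomas (95% interval 0.0015 to 1.02, limma adjusted p = 0.283). Il13ra1, the chain that completes the type II interleukin 4 receptor, was not well above background on any of the 11 arrays and was not tested. Its signals lay between -8.64 and -6.77, all below the dimmest signal well above background.

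Il21r binds IL-21, the follicular T helper cytokine that promotes plasma cell formation, and lies next to Il4ra on chromosome 7 (A_55_P2071447, mm9 chr7:132776725-132776784). It read -0.91, -1.88, -1.45 and -4.55 in PCL1 to PCL4, against -0.17, 0.01 and -0.57 in MCL1 to MCL3 and -0.26, -1.57, -0.0007 and 0.43 in BL1 to BL4. All 4 plasma cell lymphomas were below all 3 mantle cell lymphomas, a separation that 13.8% of all genes showed in this direction, but they overlapped with BL2. The differences were -1.96 from mantle cell lymphomas (standard error 0.78, limma adjusted p = 0.161) and -1.85 from Burkitt lymphomas (standard error 0.73, limma adjusted p = 0.226). Without PCL4 they were -1.17 and -1.06. The signal was well above background on all 11 arrays, PCL4 included. Chromosome 7 genes of above-median signal were low in plasma cell lymphomas, with medians of -0.33 against mantle cell and -0.43 against Burkitt lymphomas. For all genes of above-median signal these were 0.04 and 0.03. The part of this shift in the differences of Il4ra and Il21r was not tested.

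Il4ra and Il21r were therefore low together in PCL4. PCL4 differed from the mean of PCL1, PCL2 and PCL3 by -3.78 for Il4ra and by -3.14 for Il21r on the log2 scale. The 8 other tested genes within 500 kb did not share this, with PCL4 between -1.22 and 0.40 of the mean of the other plasma cell lymphomas and a median of -0.34. None of these 8 neighbours, which include the histone demethylase gene Kdm8 and the transcription factor IIIC subunit gene Gtf3c1, was called in any of the 3 comparisons. A low PCL4 was not particular to the pair. Samsn1, the tested named gene most alike in pattern to each of them, read -4.48 in PCL4, against -1.83, -2.05 and -2.27 in PCL1 to PCL3. Il4ra stood apart from the other tumours in PCL4 on the 3' probe and Il21r on its only probe, so the pattern rests on 1 tumour and on signals of which the Il4ra one was at background.

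**Figure D2:**
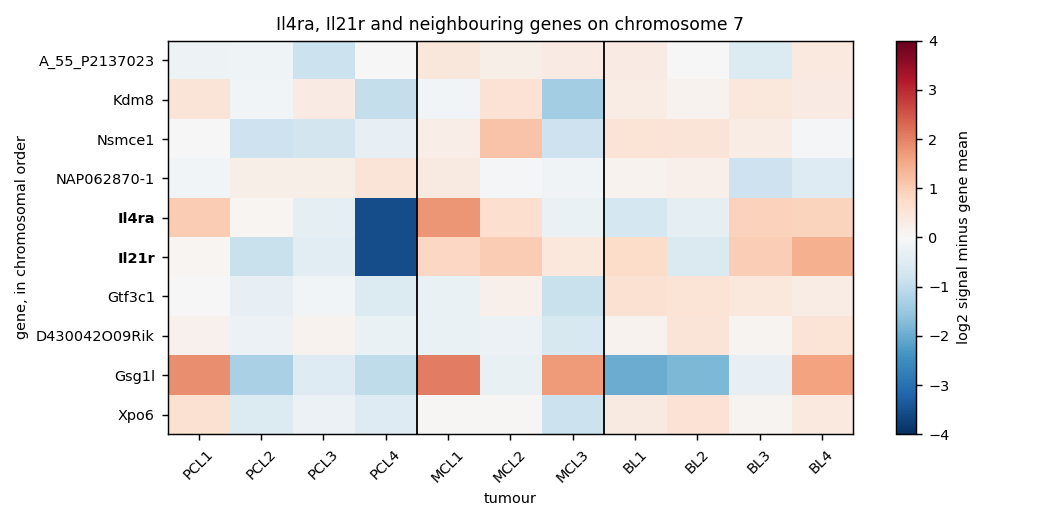
Log2 signal minus the gene's mean over 11 tumours (colour, blue for low) for Il4ra, Il21r and the 8 other tested genes within 500 kb on chromosome 7, in chromosomal order down the page, with PCL, MCL and BL tumours across and vertical lines between types. Il4ra and Il21r are dark blue in PCL4, and the 8 neighbours there lie between -1.22 and 0.40 of the other plasma cell lymphomas.

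Il9r, the interleukin 9 receptor chain of T cells, mast cells and some B cells, was the receptor with the widest range. Its probe A_55_P2214531 (mm9 chr11:32090499-32090558) read -2.31, -0.11, -0.21 and 0.08 in PCL1 to PCL4, against -1.76, -3.64 and -3.85 in MCL1 to MCL3 and -4.85, -6.78, -0.39 and -2.14 in BL1 to BL4. PCL2, PCL3 and PCL4 were above all tumours of the other types, whereas PCL1 was below MCL1, BL3 and BL4, and BL2 was not well above background. The differences were 2.45 from mantle cell lymphomas (standard error 1.34, limma adjusted p = 0.295) and 2.90 from Burkitt lymphomas (standard error 1.24, limma adjusted p = 0.262). Without PCL1 they were 3.00 and 3.46, with adjusted p = 0.194 and 0.171 in limma.

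The other Il9r probe (A_55_P1979427, mm9 chr11:32089002-32089061) was well above background on all 11 arrays. It read -3.38, -1.97, -1.96 and -1.86 in PCL1 to PCL4, against -3.71, -3.15 and -5.00 in MCL1 to MCL3 and -5.40, -5.83, -2.64 and -3.96 in BL1 to BL4. On both probes PCL2, PCL3 and PCL4 were the highest tumours and BL2 the lowest. The differences were 1.66 from mantle cell lymphomas and 2.16 from Burkitt lymphomas (limma adjusted p = 0.220 and 0.155 with every probe tested on its own).

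Markers of other cells were high together with Il9r in PCL2, PCL3 and PCL4, but did not follow it across all tumours. BL3, at -0.39 for Il9r, had a macrophage list median of 0.01. BL2, lowest in Il9r, was lowest in neither marker list below. All 15 tested macrophage markers of 17 listed had higher means in plasma cell lymphomas against both other types, and their list medians, each gene centred on its own mean, were -0.96, 2.74, 1.74 and 1.77 in PCL1 to PCL4, against 0.25, -1.85 and -1.46 in MCL1 to MCL3 and -0.61, -0.52, 0.01 and -0.62 in BL1 to BL4. Of the 15, 2 (Cd14 and Msr1, both higher in plasma cell lymphomas) were called against mantle cell lymphomas with all tumours, when 6.94% of all genes were. Without PCL1 there were 13, when 12.2% of all genes were called. Against Burkitt lymphomas none was called with all tumours and 6 without PCL1, when 5.32% of all genes were. PCL1 was set apart partly by its low values of these same markers, so the counts without it are no separate support. Without PCL4 no macrophage marker was called in any comparison, when 1.67% of all genes were called against mantle cell lymphomas. Of 13 eosinophil and mast cell markers, 5 were tested, with list medians of -0.56, 2.54, 2.12 and 1.64 in PCL1 to PCL4, against -0.75, -1.48 and -1.05 in MCL1 to MCL3 and 0.52, -0.24, 0.53 and 0.28 in BL1 to BL4. None of the 5 was called with all tumours. Without PCL1, 3 were called against mantle cell and 1 against Burkitt lymphomas, when 12.2% and 5.32% of all genes were. PCL1 read low in this list as well, so these counts are no separate support. Between mantle cell and Burkitt lymphomas 2 of the 5 were then called, when 6.8% of all genes were. Detection within this list was mixed. Prg2 and Tpsb2 were well above background on all 11 arrays, Ear2 on 10, Ear1 on 8 and Ccr3 on 7, including all 4 plasma cell lymphomas and none of the 3 mantle cell lymphomas. Siglecf and Kit were on 2 arrays each and Cma1 on 1, and Cpa3, Mcpt4, Fcer1a, Ms4a2 and Epx on none. The part of these cells in the Il9r signal was not tested, and in RNA of whole nodes fewer cells of a type and less RNA per cell cannot be told apart.

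**Figure D3:**
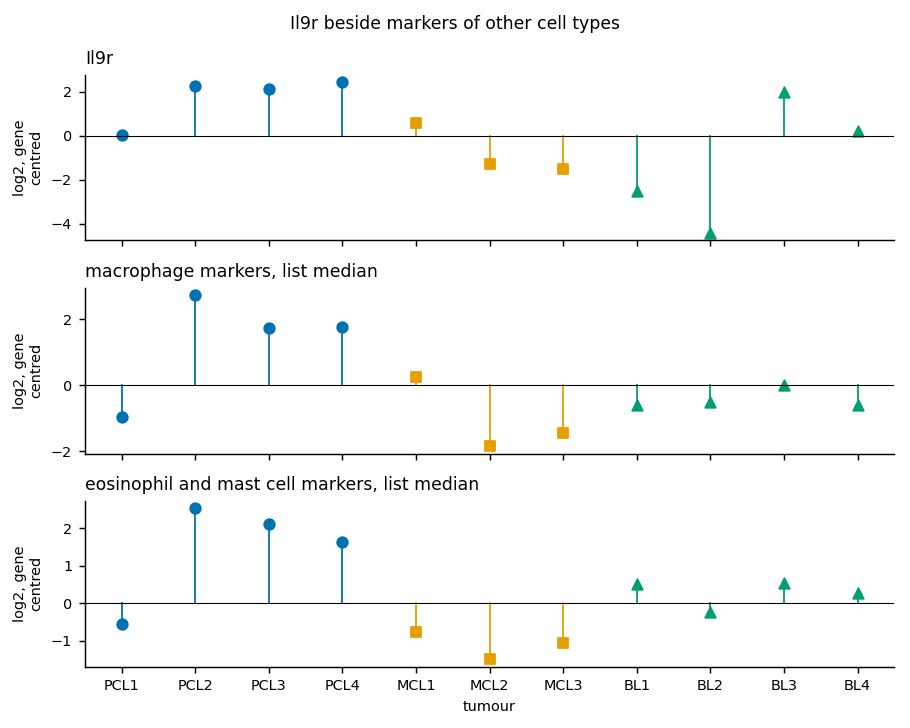
Log2 signal of Il9r, and medians of the macrophage and the eosinophil and mast cell marker lists, each gene minus its mean over the 11 tumours (vertical axes), for each PCL, MCL and BL tumour (horizontal axis). PCL2, PCL3 and PCL4 are high in all 3 panels, and PCL1 is near or below 0 in each.

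Il5ra, the ligand-binding chain of the interleukin 5 receptor on B-1 cells and eosinophils, lies on chromosome 6 (A_55_P1992592, mm9 chr6:106660378-106660437). It read 0.31, -1.32, -1.25 and -2.03 in PCL1 to PCL4, against 1.87, -0.36 and 1.25 in MCL1 to MCL3 and 0.77, -1.46, 1.72 and -0.01 in BL1 to BL4. PCL2, PCL3 and PCL4 were below all mantle cell lymphomas, and PCL1 was between them. The differences were -1.99 from mantle cell lymphomas (standard error 0.81, limma adjusted p = 0.167) and -1.33 from Burkitt lymphomas (standard error 0.75, limma adjusted p = 0.400). With arrays weighted by quality the first was -2.52 and passed the test (limma adjusted p = 0.0277). Chromosome 6 genes as a whole were low in plasma cell lymphomas, with medians of -0.47 against mantle cell and -0.63 against Burkitt lymphomas over 454 genes of above-median signal, and the part of this shift in the Il5ra difference was not tested.

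The interleukin 6 receptor consists of Il6ra, which binds the cytokine, and Il6st, which signals and is shared with other cytokines. Il6ra read 2.46, 2.07, 2.17 and 2.66 in PCL1 to PCL4, against 3.41, 1.86 and 2.08 in MCL1 to MCL3 and 1.79, 2.90, 2.80 and 1.80 in BL1 to BL4. The means of 2.34 ± 0.27 (SD, n = 4) in plasma cell, 2.45 ± 0.84 (SD, n = 3) in mantle cell and 2.32 ± 0.61 (SD, n = 4) in Burkitt lymphomas lay within the spread of each type. The differences had 95% intervals of -1.04 to 0.83 for plasma cell against mantle cell lymphomas and -0.85 to 0.89 for plasma cell against Burkitt lymphomas, so that differences within these bounds were not resolved.

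Il6st read -0.75, -1.27, -1.43 and -1.96 in PCL1 to PCL4, against -1.40, -1.51 and 0.42 in MCL1 to MCL3 and -0.74, -2.96, -1.14 and -0.91 in BL1 to BL4. MCL3 was the highest tumour and BL2 the lowest, and the types overlapped. The differences of plasma cell lymphomas were -0.52 (95% interval -1.90 to 0.85) and 0.09 (95% interval -1.19 to 1.36) from mantle cell and Burkitt lymphomas.

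Il10ra, the ligand-binding chain for interleukin 10, an anti-inflammatory cytokine that also promotes plasma cell differentiation, was well above background on every array. It read 0.90, 0.48, 1.21 and 1.73 in PCL1 to PCL4, against 1.199, -0.16 and -0.59 in MCL1 to MCL3 and 1.10, 1.55, 0.40 and 1.69 in BL1 to BL4. MCL2 and MCL3 were the lowest tumours, and MCL1 lay among those of the other types. Mantle cell lymphomas differed from Burkitt lymphomas by -1.04 (standard error 0.47, limma adjusted p = 0.282), and plasma cell from mantle cell lymphomas by 0.93 (standard error 0.47, limma adjusted p = 0.262).

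Il17rb, on chromosome 14, showed the only called difference. Its probe A_55_P2124498 read -3.57, -6.38, -4.80 and -7.14 in PCL1 to PCL4, against -1.80, -2.20 and -1.42 in MCL1 to MCL3 and -2.57, -3.57, -1.86 and -3.50 in BL1 to BL4. All 4 plasma cell lymphomas were below the other tumours, a separation from Burkitt lymphomas that 4.4% of all genes showed in this direction, PCL1 and BL2 being separated only in the third decimal (-3.5702 against -3.5676). In plasma cell lymphomas 1 of 4 signals was well above background, against 3 of 3 in mantle cell and 4 of 4 in Burkitt lymphomas, so 3 of the plasma cell values are bounds on a lower level. Il17rb thus entered the fit mainly through the types in which it was high. Its call is given as a description, and the fitted differences from plasma cell lymphomas have no exact size. The differences were -3.67 from mantle cell lymphomas (95% interval -5.39 to -1.95, limma adjusted p = 0.0253) and -2.60 from Burkitt lymphomas (95% interval -4.19 to -1.004, limma adjusted p = 0.110). Mantle cell and Burkitt lymphomas differed by 1.07 (standard error 0.77, limma adjusted p = 0.540).

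The call against mantle cell lymphomas depended on single tumours. Leaving out PCL2, PCL4, MCL1, MCL2 or MCL3 in turn gave limma adjusted p from 0.0612 to 0.0755 with differences of -3.86 to -3.11, and fitting only the 2 types gave adjusted p = 0.0598. Leaving out PCL1 gave -4.30 (adjusted p = 0.00532) against mantle cell lymphomas and brought the comparison with Burkitt lymphomas past the threshold as well, at -3.23 (limma adjusted p = 0.0199). With normexp background correction, which lifts dim signals, the difference was -1.60 (adjusted p = 0.161).

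The other Il17rb probe, whose sequence is given above, was close to background. It read -5.31, -5.45, -7.13 and -7.60 in PCL1 to PCL4, against -7.05, -7.55 and -8.03 in MCL1 to MCL3 and -8.61, -8.13, -7.69 and -7.65 in BL1 to BL4. PCL1 and PCL2 were the only tumours in which it was well above background, and it was therefore not tested. The other values, including all those of mantle cell and Burkitt lymphomas, are only bounds, so this probe sets no order of the types. The tumours in which the upstream probe was detected included PCL1, in which the 3' probe was detected too, and PCL2, in which it was not. Which of the probes reads the full receptor transcript was not tested, and the lower Il17rb signal in plasma cell lymphomas holds for the 3' probe.

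**Figure D4:**
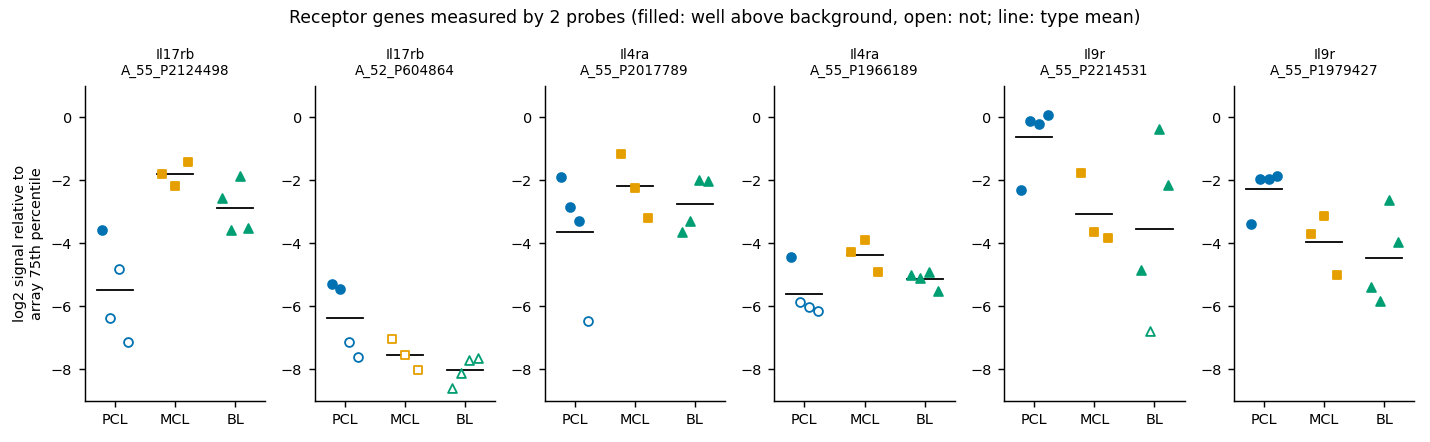
Log2 signal relative to the array's 75th percentile (vertical axis) of both probes of Il17rb, Il4ra and Il9r in PCL, MCL and BL tumours, 1 point per tumour with the type mean as a line; filled points are well above background and open points are not. The tested Il17rb probe has means of -5.47 in PCL against -1.81 in MCL, the second Il17rb probe is filled in PCL1 and PCL2 alone, and PCL2, PCL3 and PCL4 are the highest tumours on both Il9r probes.

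The 3 named genes whose pattern over the 11 tumours was most like that of Il17rb, among 13706 compared after centring each gene on its mean, were Fam160a1, Sct and Mthfd2l, with root mean square log2 differences of 0.57, 0.64 and 0.64. Sct encodes the hormone secretin, and it read -3.35, -5.49, -5.12 and -5.97 in PCL1 to PCL4, against -0.81, -1.77 and -2.04 in MCL1 to MCL3 and -3.31, -3.10, -2.33 and -3.24 in BL1 to BL4. Sct was picked by this likeness, so its shared pattern is no separate support. Both genes had their lowest reading in PCL4, below the dimmest signal well above background on that array (-5.45), so these values are only bounds.

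**Figure D5:**
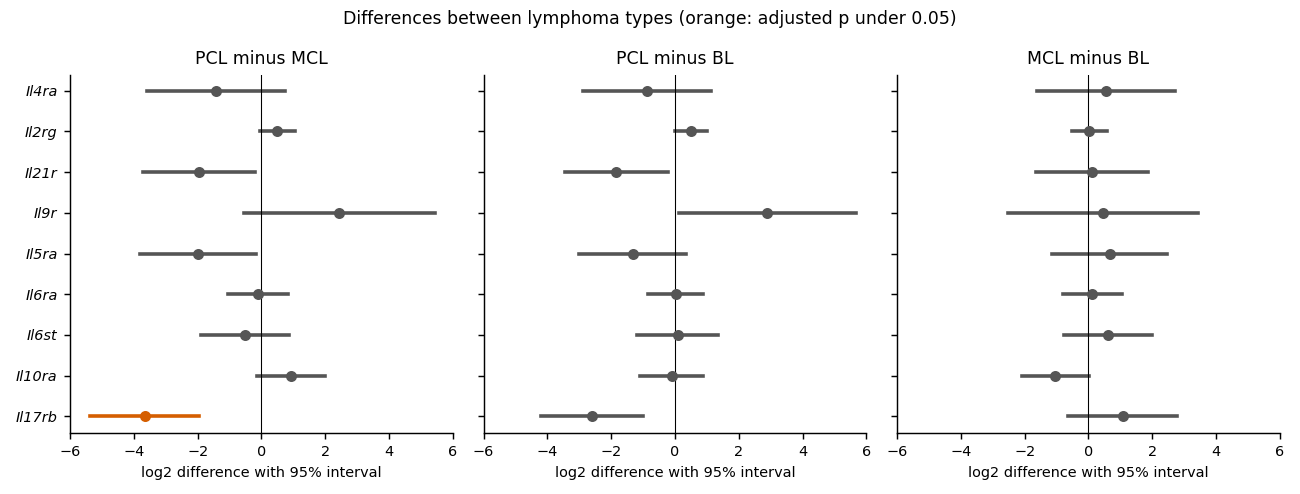
Log2 differences (horizontal axis) of the 9 tested receptor genes between PCL and MCL, PCL and BL, and MCL and BL, with 95% intervals from limma over 4, 3 and 4 tumours; orange marks an adjusted p under 0.05. Only the Il17rb difference of PCL from MCL, -3.67, is orange, and most other intervals include 0.

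The rest of the pathway was read from lists of further genes. Of 38 other interleukin receptor chains, 29 were tested. Against mantle cell lymphomas 1 was called, when 6.94% of all genes were, and this was Il1r2, the decoy receptor for interleukin 1. It read -3.99, -2.80, -5.27 and -3.85 in PCL1 to PCL4, against -5.37, -7.27 and -8.06 in MCL1 to MCL3 and -4.36, -4.97, -4.99 and -5.33 in BL1 to BL4. It was well above background in 3 of 4 plasma cell, 1 of 3 mantle cell and 4 of 4 Burkitt lymphomas, so most of the mantle cell values are only bounds. The fitted log2 difference of plasma cell from mantle cell lymphomas was 2.93 (standard error 0.67, limma adjusted p = 0.0317), and that from Burkitt lymphomas was 0.94 (limma adjusted p = 0.474). Granulocyte markers, of which 11 of 12 tested had higher means in plasma cell than in mantle cell lymphomas, had list medians of -1.54, 2.99, 0.13 and 1.07 in PCL1 to PCL4, against -1.57, 0.19 and -0.68 in MCL1 to MCL3 and -1.61, 1.09, -0.32 and 1.52 in BL1 to BL4. With all tumours none of those 11 was called. The 1 marker called, Elane, went the other way, with a log2 difference of -1.02 from mantle cell lymphomas (limma adjusted p = 0.0160). Elane was also higher in mantle cell than in Burkitt lymphomas (1.36, limma adjusted p = 0.00392), the direction of 97% of all calls in that comparison. Without PCL1, 2 of the 12 granulocyte markers were called against mantle cell lymphomas, and without PCL4 none was. The part of granulocytes, or of the macrophages described above, in the Il1r2 signal was not tested. Without PCL4 no gene of the receptor chain list was called, when 1.67% of all genes were called against mantle cell lymphomas. Without PCL1 there were 2 of 29 against mantle cell and 1 of 29 against Burkitt lymphomas, when 12.2% and 5.32% of all genes were called. Of the 20 ligands of these receptors, 8 were tested and none was called with all tumours. Without PCL1, 1 of the 8 was called against Burkitt lymphomas, when 5.32% of all genes were. Interleukin genes Il2, Il7, Il9, Il17b, Il21 and the related cytokine gene Tslp were well above background on no array.

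Inside the cell, none of 11 tested JAK kinases and STAT factors and 1 of 17 tested negative regulators was called with all tumours. Of all genes, 6.94% were then called between plasma cell and mantle cell and 0.659% between plasma cell and Burkitt lymphomas. Between mantle cell and Burkitt lymphomas 6.64% were. Without PCL1, limma called 2 of the 11 against mantle cell and 1 against Burkitt lymphomas, and 2 of the 17 negative regulators against Burkitt lymphomas, beside the same 12.2% and 5.32% of all genes. Without PCL4 none of the 17 was called against mantle cell lymphomas. The regulator was Ptpn6, which encodes the phosphatase SHP-1 and lies on chromosome 6, and it was lower in plasma cell than in mantle cell lymphomas (log2 difference -1.29, standard error 0.33, limma adjusted p = 0.0475). Of 8 tested adaptors, 1 was called, Irs1, which couples the interleukin 4 receptor to phosphatidylinositol 3-kinase. It read -2.95, -1.69, 0.35 and -1.38 in PCL1 to PCL4, against -7.98, -6.81 and -5.48 in MCL1 to MCL3 and -6.65, -4.93, -7.88 and -7.73 in BL1 to BL4. All plasma cell lymphomas were above all other tumours. Irs1 was well above background in 4 of 4 plasma cell, 1 of 3 mantle cell and 1 of 4 Burkitt lymphomas, so it entered the fit mainly through the type in which it was high, and its call is given as a description. Most values of the other types are only bounds, and the fitted differences of 5.34 and 5.38 from mantle cell and Burkitt lymphomas have no exact size. The call against Burkitt lymphomas was lost without PCL4.

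Of 18 tested STAT target genes of B cells, 3 were called lower in plasma cell than in mantle cell lymphomas, where 4.82% of all genes were, and none was called higher. Il4i1, an interleukin 4-induced amino acid oxidase, read -1.11, 0.08, 0.71 and -0.49 in PCL1 to PCL4, against 2.99, 2.48 and 2.10 in MCL1 to MCL3 and 1.80, 1.71, 2.79 and 2.52 in BL1 to BL4. It was lower in plasma cell lymphomas, with log2 differences of -2.73 from mantle cell lymphomas (standard error 0.44, limma adjusted p = 0.00983) and -2.41 from Burkitt lymphomas (standard error 0.41, limma adjusted p = 0.0361). Ccnd2, which encodes the G1 cyclin D2, was lower as well, with differences of -3.104 and -3.49 from mantle cell and Burkitt lymphomas (limma adjusted p = 0.0191 and 0.0322). Bcl3, a nuclear co-regulator of NF-kappaB, was lower than in mantle cell lymphomas (log2 difference -1.42, limma adjusted p = 0.0187). Without PCL4, 2 of the 18 were called against mantle cell and none against Burkitt lymphomas, when 1.67% and 0.139% of all genes were called. Of the whole list, 11 of 18 genes had a higher mean, with a median difference of 0.15 from mantle cell lymphomas. Il4i1 and Bcl3 lie on chromosome 7 and Ccnd2 on chromosome 6, and the medians of the well measured genes of chromosome 7 were -0.33 against mantle cell and -0.43 against Burkitt lymphomas over 754 genes. Whether these shifts take part in the calls was not tested.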

How the data were processed

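The deposited scanner files of 11 one-colour Agilent arrays (Cy3, low-input QuickAmp labelling, per the labels' protocols) came from Agilent's Feature Extraction software, version 10.7.3.1 per the file headers. Their processed signal is an intensity that is background-subtracted per the file headers, with a substitute value set for 21.5% to 29.2% of spots per array. The authors' value table, in log2 units, has medians of 7.25 to 7.26, ranks spots as the median signal does (Spearman correlation 1), and was used as an alternative; its scale and direction fit those of the scanner values, and its centring stays unknown. Probe positions are those of the scanner files (mm9); no annotation of that build was used, so exons and UTRs were not looked up.

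The log2 of each processed intensity minus the array's 75th percentile over unflagged non-control spots was taken (43020 spots, 39429 probes). Outlier spots were left out, which removed 46 probes. A probe entered the fit where 3 or more arrays read it well above background (25296 probes), the probe with the highest mean stood for a gene (20181 genes), and limma 3.58.1 in R 4.3.3 fitted a mean per type over all 11 arrays, with Benjamini-Hochberg adjustment over all genes. The fit was tested on simulated data. Arrays carry no counts, so the number of arrays limits the precision. The array position on its slide was checked as a pairing: deviations of arrays at the same position correlated by -0.05 to 0.17, and the positions share only a number.

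Every member was described with every probe. The members, the lists of pathway and marker genes and the promoter motifs were chosen with earlier results of these data known. From each list the genes called in a comparison with all tumours were named, at most 5 by smallest adjusted p. Of the T cell markers this was Cd4, with log2 differences of -0.78 for plasma cell against mantle cell lymphomas (limma adjusted p = 0.0368). That call was lost without PCL4. For mantle cell against Burkitt lymphomas Cd4 gave 0.96 (limma adjusted p = 0.0142). Of the stromal and endothelial markers it was Kdr, higher in mantle cell than in Burkitt lymphomas (0.82, limma adjusted p = 0.0476). Kdr was not called without PCL1 or without PCL4. Of all calls between mantle cell and Burkitt lymphomas, 97% were higher in mantle cell lymphomas. The 3 genes most alike in pattern were named for the called member, and the genes within 500 kb were counted for neighbouring members. For Il4ra and Il21r only the gene most alike was named. Array normalisations, filters on dim probes, weights, a position block and leaving out each tumour were tried as alternatives.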

Additional observations from a re-analysis of the deposited data

Results flagged for a closer look

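Values at the edge of their own type were looked for in 22 groups of 4 tumours, with Dixon's ratio against its 95% critical value. Chance flags about 1 in 20 such groups, and 3 stood out, all of them PCL1. On both Il9r probes PCL1 was the lowest plasma cell lymphoma, at -2.31 with the next at -0.21 (ratio 0.875) on A_55_P2214531, and at -3.38 with the next at -1.97 (ratio 0.929) on A_55_P1979427. On the Il4ra probe A_55_P1966189 PCL1 was the highest, at -4.43 with the next at -5.86 (ratio 0.833), where the other 3 plasma cell lymphomas were not well above background.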

How the results depend on the processing

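Il17rb was the only receptor called with all tumours, and its log2 difference of plasma cell from mantle cell lymphomas kept its sign under all 22 alternatives (-4.53 to -1.60) and passed the threshold in 15. The number of receptors called against mantle cell lymphomas, and among the 3 types, was 0 with normexp background correction (131 and 197 genes called among all types and against mantle cell lymphomas, where 1701 and 1401 were), 0 when only probes well above background on all 11 arrays were tested, since Il17rb is then not tested, and 2 with array quality weights (Il17rb and Il5ra). It was 0 against mantle cell lymphomas with only the 2 types compared. Against Burkitt lymphomas it was 1 with array quality weights (Il17rb, -3.38, adjusted p = 0.0162) and 1 without PCL1. Leaving out 1 tumour at a time gave 0 to 1 receptors in the F test, 0 to 1 against mantle cell lymphomas and 0 to 1 against Burkitt lymphomas; the causes were not tested. Called genes over the array ranged over 333 to 2463 (1401), 5 to 1074 (133) and 687 to 1373 (1341) when 1 tumour was left out, in the order plasma cell against mantle cell, plasma cell against Burkitt and mantle cell against Burkitt lymphomas. Array weights gave 4424, 2183 and 1122, normexp 197, 13 and 65, median centring 1120, 468 and 304, only the 2 types 742, 117 and 291, the authors' log2 values 1527, 166 and 680, no filter on dim probes 697, 86 and 974, and quantile normalization 1561, 97 and 746. Median centring moved the median of all genes by -0.25 and -0.26 against Burkitt lymphomas, and turned the share of higher calls for plasma cell lymphomas to 21.8%, where it was 69.2%. The replicate block by array position gave 391, 64 and 380 calls and an Il17rb difference of -3.28 (adjusted p = 0.0336), and changed no call of a receptor.

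Differences that changed sign were all uncalled. With other settings these were Il21r in mantle cell against Burkitt lymphomas (-0.15 with median centring, -0.15 with the replicate block), Il2rg in the same comparison (-0.24 with median centring), Il6ra (0.026 for plasma cell against mantle cell lymphomas with array weights, -0.23 and -0.13 for plasma cell against Burkitt lymphomas and -0.14 and -0.16 for mantle cell against Burkitt lymphomas with median centring and weights), Il6st for plasma cell against Burkitt lymphomas (-0.0032, -0.16 and -0.012 with quantile normalization, median centring and the authors' value table), and Il9r for mantle cell against Burkitt lymphomas (-0.17, -0.12 and -0.14 with normexp, the authors' value table and weights). Leaving out 1 tumour at a time gave ranges of -1.46 to 0.056 for Il4ra and -0.37 to 0.10 for Il10ra in plasma cell against Burkitt lymphomas, -0.30 to 0.37 for Il21r, -0.079 to 0.20 for Il2rg and -0.62 to 1.505 for Il9r in mantle cell against Burkitt lymphomas. Il6ra ranged over -0.40 to 0.37, -0.16 to 0.21 and -0.35 to 0.42, and Il6st over -0.86 to 0.10, -0.42 to 0.32 and -0.015 to 0.95 in the 3 comparisons.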
